A study of Rattus norvegicus with 8 samples.

Results

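Neurofilaments are the intermediate filaments of neurons. The light subunit, encoded by Nefl, forms the filament core, and the medium and heavy subunits, encoded by Nefm and Nefh, join it and carry long phosphorylated tails that reach out from the filament. The filaments fill large myelinated axons, widen them and so speed conduction, and their transcripts are made in neuronal cell bodies such as those of spinal motor neurons. The 3 genes described here were chosen by Ensembl rat ID: ENSRNOG00000013658 for Nefl, ENSRNOG00000013916 for Nefm and ENSRNOG00000008716 for Nefh. They are 3 of 32883 gene IDs in the count table, and all 3 passed the filter on low counts.

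The tissue came from Sprague Dawley rats, which are outbred, and was upper spinal cord above a hemisection at thoracic segment 9 and labelled as intact. All 8 samples were taken 23 days after the injury, and the lesion was of the same type in both groups. Per the labels the groups differed in training: 4 samples were trained and 4 untrained. The extent of the lesion in each sample was not compared. The form of training, the age and the sex are not stated, and the labels do not say that each sample is a separate animal. The p-values therefore rest on the spread between these samples and may not carry over to animals. The question was whether training after the injury was accompanied by different transcript levels in this tissue. Libraries were made with CEL-Seq2, which captures transcripts by their poly(A) tail and counts molecules at the 3′ end by unique molecular identifiers (UMIs). Whole cord was homogenised, so the counts do not say which neurons held the transcripts, and fewer neurons cannot be told apart from less RNA per neuron.

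Column totals ran from 179264 to 298262 counts in untrained and from 141737 to 216603 in trained libraries, and 8300 to 9872 genes were detected per library. Levels are given as CPM, the count scaled to a column total of 1000000. Each title carries a number from 1 to 4 that the labels leave unexplained, and samples are named here by group and number. Every title also carries the code L1, which the titles do not explain. Same-number samples of the 2 groups deviated together across genes, so they are also compared as pairs. Their deviations correlated at 0.27 (number 3) to 0.51 (number 4), against at most 0.26 (trained 2 with untrained 1) between different numbers. Number 3 was thus barely apart, and the part of depth in this likeness was not tested. At each number the trained library held fewer counts than the untrained one. Mean totals were 175700 ± 34650 counts in trained and 241700 ± 60150 in untrained libraries (SD, n = 4), so depth also differed with training. The tissue's identity was not checked against cell-type markers, because the other IDs are not paired with gene symbols in the sources used here.

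No neurofilament gene passed the test for a difference between trained and untrained cord. Mean levels were lower with training for all 3, by less than the larger of the 2 group SDs, as was the fitted level of 51.1% of the genes tested; in counts thinned to the smallest library the fitted Nefh level was instead higher, by 0.0575 on the log2 scale. The 2 groups overlapped for each of the 3 (over all genes tested, 1.16% lay wholly lower and 0.298% wholly higher with training). Of the 3016 genes tested, 0% were called at an adjusted p under 0.05 (edgeR quasi-likelihood test with Benjamini-Hochberg adjustment), whose lowest adjusted p was 0.647, and DESeq2 and limma voom also called 0. At an unadjusted p under 0.05, 0.895% of genes were lower and 0.796% higher with training, and the 3 neurofilament genes were not among them.

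Nefl, the core subunit, was the most counted of the 3, with 159 to 578 UMIs per library and rank 87 by mean count among the 12545 IDs with any count. Its level was 1938, 1219, 1301 and 1233 CPM in untrained samples 1 to 4 and 1065, 1053, 1656 and 1122 CPM in trained samples 1 to 4. Untrained 1 and trained 3 stood above the rest; 3 of the 4 trained values lay below every untrained value, and trained 3 lay above 3 of the 4 untrained ones. On TMM-scaled totals, the scaling of the edgeR fit, 2 trained values lay below every untrained one and trained 3 lay above all 4. The trained mean was 1224 ± 289.7 CPM and the untrained mean 1423 ± 345 CPM (SD, n = 4). The fitted log2 fold change, trained over untrained, was -0.14 (SE 0.23, adjusted p = 0.999 by edgeR), and its 95% interval allowed levels with training from 0.649 to 1.28 times those without. Without untrained 1 the log2 fold change was 0.0084.

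Nefm, the medium subunit with a long tail, had 40 to 178 UMIs per library and rank 244. It was measured at 597, 556, 750 and 759 CPM in untrained samples 1 to 4 and at 209, 434, 792 and 734 CPM in trained samples 1 to 4. Trained 1 and trained 2 were below every untrained library, while trained 3 was the highest of all 8 and trained 4 lay within the untrained range. Trained 1 alone held 40 Nefm counts, and its exact 95% binomial interval of 149 to 284 CPM lay apart from the intervals of the other 7 libraries, the nearest of which began at 351 CPM. Such intervals cover counting error only. The trained mean was 542 ± 272 CPM and the untrained mean 665 ± 104 CPM (SD, n = 4). The log2 fold change of Nefm was -0.23 (SE 0.33, adjusted p = 0.999 by edgeR; 95% interval 0.523 to 1.39 times the untrained level). Without trained 1 it was 0.059.

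Nefh, the heavy subunit with the longest tail, had 66 to 192 UMIs per library and rank 235. Its level was 644, 573, 645 and 686 CPM in untrained samples 1 to 4, a narrow range. In trained samples 1 to 4 it was 345, 526, 923 and 586 CPM, so trained 1 and trained 2 were below the untrained range, trained 3 above it and trained 4 inside it. The trained mean was 595 ± 242 CPM and the untrained mean 637 ± 46.95 CPM (SD, n = 4). The log2 fold change of Nefh was -0.028 (SE 0.27, adjusted p = 0.999 by edgeR; 95% interval 0.659 to 1.46 times the untrained level). Its sign changed without untrained 3 (0.0088), untrained 4 (0.049), trained 1 (0.18) or trained 2 (0.063), each left out alone.

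**Figure D1:**
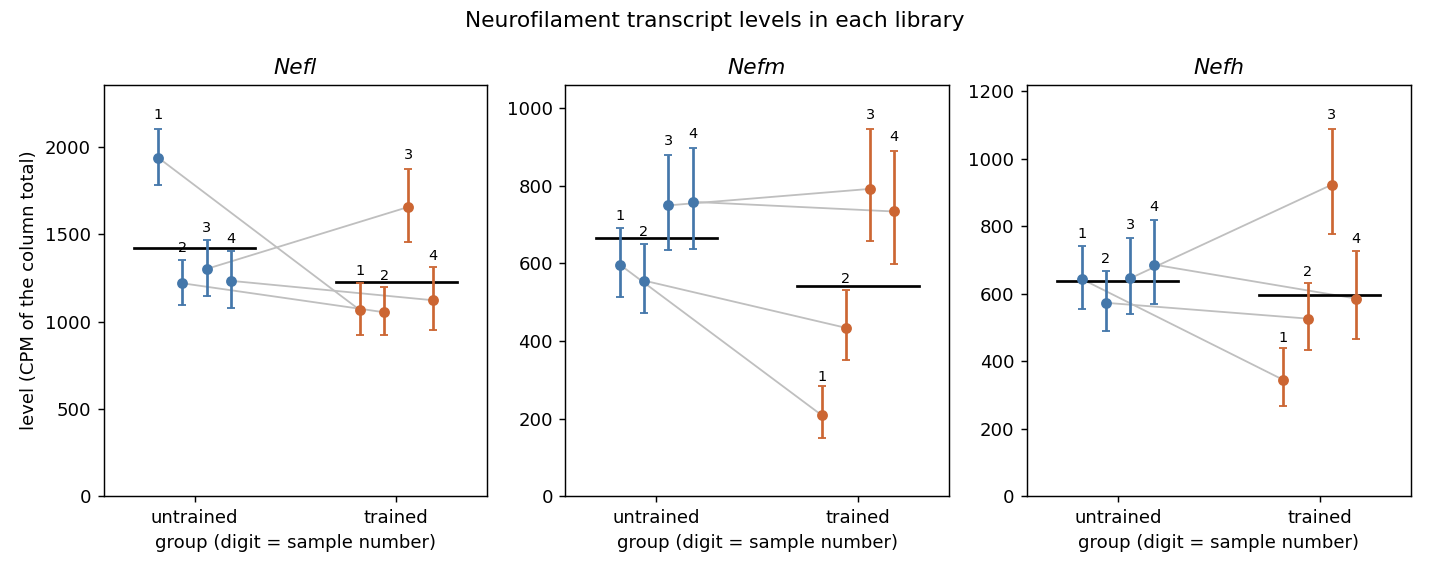
Level of each neurofilament gene in CPM of the column total (vertical axis, from 0) in the 4 untrained and 4 trained libraries. Points are libraries with exact 95% binomial intervals, digits are sample numbers, grey lines join same-number samples and black bars are group means; trained 1 is lowest and trained 3 highest for Nefm and Nefh, and untrained 1 is highest for Nefl at 1938 CPM.

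The 3 transcripts together took 0.318%, 0.235%, 0.270% and 0.268% of all counts in untrained samples 1 to 4. In trained samples 1 to 4 they took 0.162%, 0.201%, 0.337% and 0.244%. The smallest and the largest share were thus both in trained libraries, those of samples 1 and 3. Trained 1 held 191502 counts in all and trained 3 held 152764, and the part of depth in this pattern was not tested. Among the 333 tested genes that averaged at least 100 counts per library, trained 1 was the lowest of the 8 libraries for 22.2% and trained 3 the highest for 9.01%. Both held for 3.6% of them, 12 genes, which include Nefm and Nefh but not Nefl. On TMM-scaled totals these shares were 20.4%, 19.2% and 5.71%, and Nefm and Nefh were again lowest in trained 1 and highest in trained 3. This pattern was chosen after its values were seen.

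The spread within a group was set against counting error by a chi-square statistic per degree of freedom, which is about 1 where samples differ by counting error alone. On column totals it was 0.845 for Nefh in untrained and 16.9 in trained libraries, with coefficients of variation of 7.37% and 40.6%. On TMM-scaled totals the untrained Nefh value was 2.33, with a coefficient of variation of 12.5%, and the trained one was 20.5. Nefm had 3.87 without and 24.7 with training on column totals, and 7.74 and 28.8 on TMM-scaled totals. For Nefl the order depended on the scaling, at 22.6 without and 11.3 with training on column totals but 16.2 in both groups on TMM-scaled totals. Whether the spread differs between groups was not tested. The biological coefficient of variation that edgeR fitted over both groups was 23.5% for Nefl, 32.8% for Nefm and 26.8% for Nefh, at the 60.1st, 93.4th and 77.8th percentile of the genes tested.

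**Figure D2:**
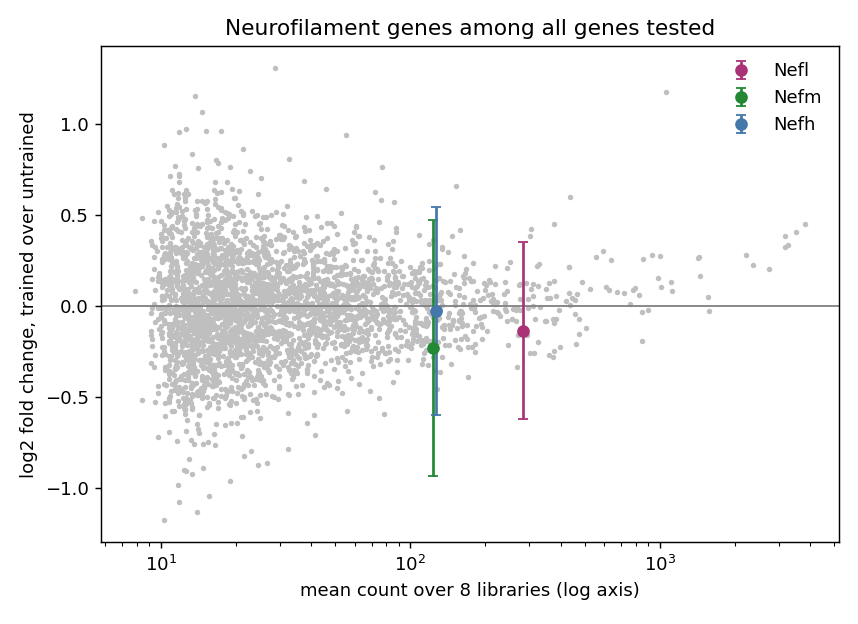
Fitted log2 fold change, trained over untrained (vertical axis), against mean count over the 8 libraries (horizontal log axis) for the 3016 genes tested, in grey. Coloured points are Nefl, Nefm and Nefh with 95% intervals; all 3 intervals include 0.

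Compared by sample number, each of the 3 genes was lower in the trained library for numbers 1, 2 and 4 and higher for number 3. For Nefl the trained level was 0.55, 0.863, 1.27 and 0.910 times the untrained level in numbers 1 to 4. For Nefm these ratios were 0.350, 0.781, 1.06 and 0.967, and for Nefh 0.535, 0.918, 1.43 and 0.854. The largest gap was in number 1 for all 3 genes, and it was widest for Nefm. A smallest ratio in number 1 and a largest in number 3 was found in 19.5% of these 333 abundant genes, and a lower trained level in at least 3 of the 4 numbers in 45.9%. The mean log2 ratio over the 4 pairs was -0.22 ± 0.50 for Nefl, -0.46 ± 0.73 for Nefm and -0.18 ± 0.58 for Nefh (SD, n = 4 pairs), smaller than its spread in each case.

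With the number as a block, the edgeR fit again called none of the 3. The log2 fold change was -0.15 for Nefl (SE 0.15, adjusted p = 0.932), -0.34 for Nefm (SE 0.19, adjusted p = 0.914) and -0.10 for Nefh (SE 0.17, adjusted p = 0.959). The blocked 95% intervals allowed trained levels of 0.716 to 1.13 times the untrained level for Nefl, 0.593 to 1.05 for Nefm and 0.720 to 1.21 for Nefh. Blocked fits called 0% of genes; at an unadjusted p under 0.05 they had 2.22% lower and 2.88% higher, and none of the 3 was among these. Blocked fits without both samples of number 1 gave 0.0465 for Nefl, -0.062 for Nefm and 0.11 for Nefh on the log2 scale. Without those of number 3 they gave -0.34, -0.52 and -0.34, each with an adjusted p of 0.713 by edgeR. The estimates therefore moved up or down with the pair left out, and that of Nefm stayed negative. None of the settings run called any of the 3 between training groups.

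**Figure D3:**
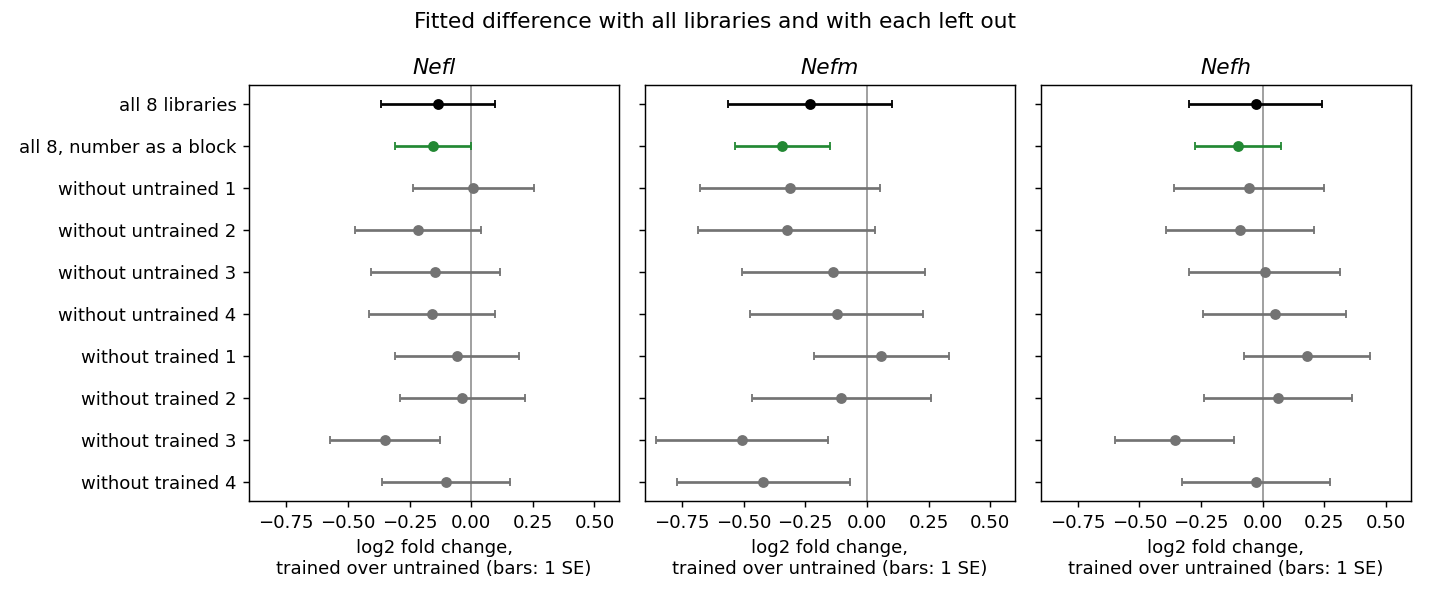
Fitted log2 fold change, trained over untrained (horizontal axis), with bars of 1 SE, for all 8 libraries (black), all 8 with the sample number as a block (green) and each library left out (grey). Leaving out trained 3 gave the lowest of the grey values for each gene, -0.35 for Nefl, -0.51 for Nefm and -0.36 for Nefh.

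Levels were then compared among the 4 sample numbers, with training in the model. Nefm differed among them (adjusted p = 0.0286, edgeR quasi-likelihood test on 3 degrees of freedom), at a mean of 403 and 495 CPM in numbers 1 and 2 and of 771 and 746 CPM in numbers 3 and 4. This call was made for 12.6% of all genes tested. It was lost in counts thinned to the smallest library (adjusted p = 0.0705) and without any 1 of untrained 2, untrained 4, trained 2, trained 3 or trained 4 (0.0940, 0.0648, 0.0929, 0.0683 and 0.107). Nefh had means of 494, 550, 784 and 636 CPM in numbers 1 to 4 (adjusted p = 0.103), and passed without untrained 1 (0.00478) or untrained 3 (0.0253). Nefl had means of 1502, 1136, 1478 and 1177 CPM (adjusted p = 0.251), and passed without trained 1 (0.00741). Libraries 1 and 2 were deeper than libraries 3 and 4 in both groups. Untrained totals were 298262, 287908, 201445 and 179264 counts in numbers 1 to 4, and trained totals were 191502, 216603, 152764 and 141737. The part of depth in these differences was not tested apart from thinning. Because the labels do not explain the number, what else the samples of one number share is unknown. The number was tested because same-number samples were found alike in these same counts, so its p-values are not independent of that choice.

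The balance between subunits was read within each library as a ratio of counts, which needs no scaling by depth. Counts at the 3′ end are not divided by transcript length, and capture may differ between genes, so a ratio is compared between libraries and not read as a ratio of molecules. Nefm had 0.308, 0.456, 0.576 and 0.615 counts per Nefl count in untrained samples 1 to 4, and 0.196, 0.412, 0.478 and 0.654 in trained samples 1 to 4. In both groups sample 1 was lowest and sample 4 highest. Nefh had 0.332, 0.470, 0.496 and 0.557 counts per Nefl count in untrained and 0.324, 0.5, 0.557 and 0.522 in trained samples 1 to 4. Here too sample 1 was lowest in both groups, at nearly the same value, with exact 95% intervals of 0.281 to 0.392 untrained and 0.241 to 0.429 trained.

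The range of each subunit ratio overlapped between the training groups. The mean log2 ratio of Nefh to Nefl was -1.10 ± 0.36 with training and -1.13 ± 0.32 without, and that of Nefm to Nefl was -1.33 ± 0.74 and -1.08 ± 0.45 (SD, n = 4). The log2 ratio of Nefh to Nefm, the 2 subunits with long tails, was 0.22 ± 0.43 with training and -0.052 ± 0.15 without. Trained 1 had 66 Nefh and 40 Nefm counts, a ratio of 1.65 (exact 95% interval 1.098 to 2.509), while the other 7 libraries had 0.798 to 1.21. That interval overlapped those of the other libraries except untrained 3, which ended at 1.096, and trained 4, which ended at 1.075. The sample number accounted for 96.7% of the spread of the log2 ratio of Nefh to Nefl and for 88.9% of that of Nefm to Nefl, and training for 0.288% and 5.06%. For the log2 ratio of Nefh to Nefm the number accounted for 57.9% and training for 19.6%. With 4 numbers against 2 groups, chance alone gives the number the larger share, and each pair of ratios shares the counts of 1 gene.

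**Figure D4:**
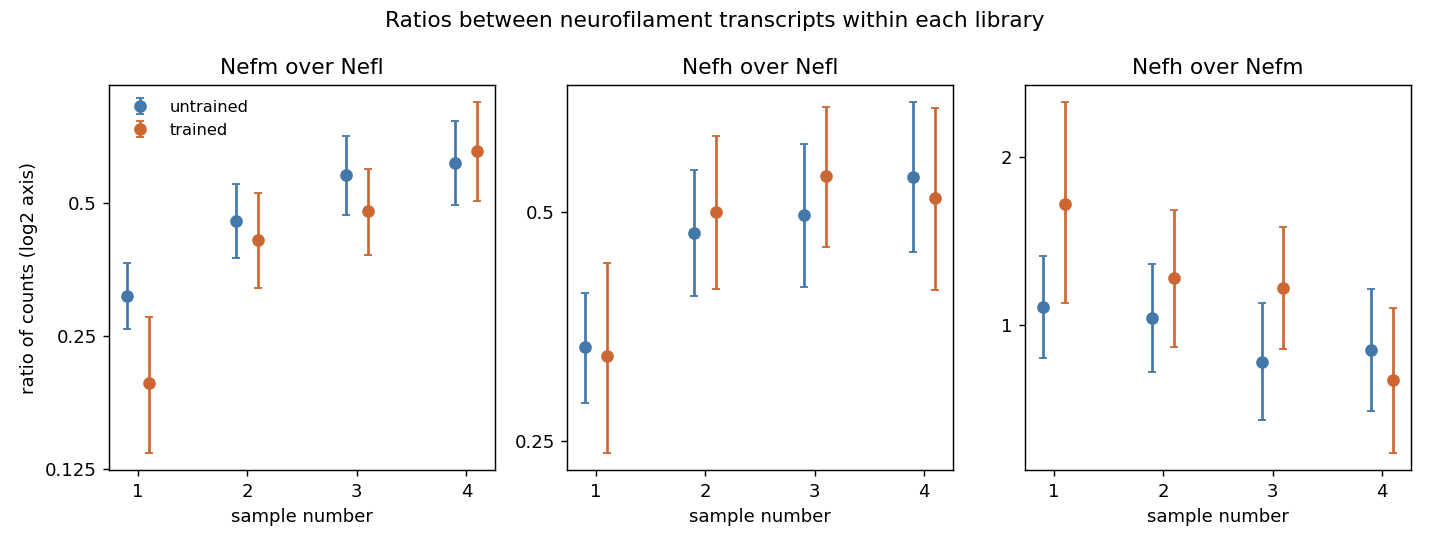
Ratio of counts between pairs of neurofilament genes within each library (vertical log2 axis) by sample number (horizontal axis), untrained in blue and trained in orange, with exact 95% binomial intervals. Both ratios to Nefl are lowest in sample 1 of each group, at 0.308 and 0.196 for Nefm and 0.332 and 0.324 for Nefh.

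Across the 8 libraries, log2 levels of Nefm and Nefh were the most alike of the 3 pairs. As a description over libraries that share sample numbers and column totals, Pearson's r was 0.90 for Nefm with Nefh, 0.64 for Nefl with Nefh and 0.45 for Nefl with Nefm. Nefl and Nefm are neighbours in RefSeq's gene table for the rat build GRCr8, on the same chromosome. Between them lie 0 protein-coding genes and 1 other gene, and Nefh lies on another chromosome. The neighbouring pair was thus the least alike here. In that build, 1 further gene overlaps Nefm. Whether counts could be shared with it is unknown, since the strand setting behind them is not stated.

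The 2 genes whose level most resembled the mean of the 3, among 330 other genes of that abundance, were ENSRNOG00000016414 (Pearson's r = 0.93) and ENSRNOG00000048365 (r = 0.88). These are given by ID because the sources used here do not name them. The median r over the 330 was 0.053, and the 2 were picked as the highest. Spearman's rank correlations of the 2 were lower, at 0.738 and 0.619. ENSRNOG00000016414 was measured at 1190, 1237, 1325 and 1417 CPM in untrained and at 736, 1131, 1499 and 1333 CPM in trained samples 1 to 4, again lowest in trained 1 and highest in trained 3. The edgeR fit put its trained level -0.07 from the untrained one on the log2 scale (SE 0.24, adjusted p = 0.999). ENSRNOG00000048365 was lowest in trained 1 as well, at 2120 CPM, and highest in untrained 3, at 6141 CPM.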

How the data were processed

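The authors deposited 1 table of whole-number UMI counts per Ensembl rat gene ID, 1 column per sample. Per the submitters' processing notes, HISAT2 2.0.4, HTSeq 0.6.0 and the build Rnor_6.0 were used; UMI length, UMI collapsing and strand are not stated. The 3 genes, their symbols, and the lists and tests were chosen with earlier results of these data known. The reference gene table holds 0 Ensembl IDs, so the pairing of IDs with symbols was not checked, and lists of axonal genes and cell-type markers set by symbol were not used.

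Trained and untrained samples were compared over all genes with edgeR 4.0.16 in R 4.3.3: expression filter (minimum count 10, minimum total 15), which kept 88.6% of counts, TMM, quasi-likelihood F test, Benjamini-Hochberg adjustment, threshold 0.05. Scripts were tested on simulated data. Sample numbers were taken as pairs because deviations of same-number samples from group means correlated at 0.27 to 0.51 across genes, all over 0.1 (other numbers, at most 0.26); this comes from the counts, not the labels. Differences among numbers were tested in the blocked fit. Log2 levels for resemblance used a prior count of 2. Besides the 3 genes, the 2 with the highest correlation to their mean were named. Spread, order and outlying libraries were also read on TMM-scaled totals, added after the data were examined. Alternatives were DESeq2 1.42.0, limma 3.58.1 voom, other scaling and filters, the block, left-out libraries, thinned counts, leaving out the 20 most abundant other genes, and a correction for an assumed ceiling of 4096 UMIs.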

Additional observations from a re-analysis of the deposited data

Results flagged for a closer look

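Among 12 sets of 4 values examined (the level of each gene and each ratio, per group), 2 held 1 library well apart from its group; chance flags about 1 set in 20. The Nefl level was 1656 CPM in trained 3, against 1053 to 1122 CPM in the other trained libraries. It was 1938 CPM in untrained 1, with the rest of that group at 1219 to 1301 CPM. The counts were 253 and 578, so counting error is small beside the gaps, and the cause was not tested. Both depended on the scaling: the gap to the nearest library was 0.885 and 0.887 of the group's range on column totals, above Dixon's critical value for 4 samples, but 0.768 and 0.664 on TMM-scaled totals, below it.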

How the results depend on the processing

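No setting called Nefl, Nefm or Nefh between training groups: over 23 alternatives each, the adjusted p was 0.713 or more. The log2 fold change ran from -0.35 to 0.0084 for Nefl, -0.51 to 0.059 for Nefm and -0.36 to 0.18 for Nefh when libraries were left out in turn. It turned positive in the blocked fit without both samples of number 1 for Nefl (0.0465) and Nefh (0.11), and in thinned counts for Nefh (0.0575). The replicate block itself gave -0.15, -0.34 and -0.10 and changed no call. The count of 0 genes called moved to 6 with no filter and, with the block and pair 1, 2 or 4 left out, to 4, 1 and 2.

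Among sample numbers, the adjusted p with libraries left out ran from 0.00741 to 0.527 for Nefl, 3.69e-05 to 0.107 for Nefm and 0.00478 to 0.304 for Nefh, and thinning gave 0.0705 for Nefm. The count of 381 genes was 124 by DESeq2's likelihood ratio test and 65 to 543 with libraries left out. The mean untrained Nefh level was 705 CPM of TMM-scaled totals and 552 CPM with the ceiling correction, against 637 CPM; both shifts exceeded its small SD. Other levels and all ratios moved by less than 1 SD. The cause of these changes was not tested. Nefm and Nefh had 40 to 192 counts per library, and training differences inside their fold-change intervals were not excluded. These intervals are per gene and are not limits of detection. A call also needed adjustment over all genes tested, so differences outside them could go uncalled too. The counting coefficient of variation at the mean count was 8.0% to 10.6% per group for these genes. The fitted biological one, without the block, was 32.8% for Nefm and 26.8% for Nefh.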

Other observations

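The sample number accounted for less of the spread of neurofilament levels than of most genes averaging at least 100 counts per library. Its share was larger than most for the 2 ratios to Nefl, but not for that of Nefh to Nefm. Over the 333 tested genes that averaged at least 100 counts per library, the median share of the spread of log2 CPM that went with the number was 78.5%; it was 32.4% for Nefl, 58.7% for Nefm and 49.1% for Nefh, which were 306th, 247th and 274th from the highest. On TMM-scaled totals the median was 79.7% and the values were 47.4%, 69.3% and 64.7%. Over the log2 ratios of 332 of these genes to Nefl the median share was 63.0%, and the 96.7% of Nefh and 88.9% of Nefm were 4th and 32nd from the highest. Over ratios to Nefm the median was 65.3%, and the 57.9% of Nefh was 201st of 332. These are descriptions over 8 libraries, chosen after the ratios were seen. The 333 genes had no upper limit on counts, while Nefm and Nefh averaged 123 and 126.8, near the lower limit. The part of counting error in these shares was not tested.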
